A study of Mus musculus with 17 samples.

Results

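A set of 6 genes for chemokine ligands, Ccl3, Ccl4, Ccl5, Ccl9, Xcl1 and Cxcl10, were followed through RNA-seq of CD8 T cells from the mouse spleen. They were taken by gene symbol from count tables of 24594 genes, and all 6 passed the filter on low counts that left 13881 genes for testing. The study has 17 libraries, and the labels give every one the genotype CD8+Thy1.1+, where Thy1.1 is a congenic marker used to tell T cells of one mouse strain from those of another. The groups differ in the label for genetic modification, with Rosa KO (5 libraries) as the control here, and 4 libraries for each of the knockouts (KO) of Asxl1, of Dnmt3a and of Tet2. Asxl1 is a chromatin regulator of the Polycomb deubiquitinase, Dnmt3a adds DNA methylation and Tet2 oxidises it. The title places the work in immunotherapy, but the sources used here do not give the treatment, the time, the age of the mice or the way each gene was inactivated.

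Chemokines are small secreted proteins that draw leukocytes along a concentration gradient by binding G protein-coupled receptors. Activated and memory CD8 T cells release several of them together with cytokines, and so recruit other T cells, monocytes and dendritic cells. Ccl3 and Ccl9 bind the receptor Ccr1, Xcl1 binds Xcr1 on cross-presenting dendritic cells, and the interferon-induced Cxcl10 binds Cxcr3 on activated T cells.

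Relative to Rosa KO, Ccl9 RNA fell in all 3 knockouts, from 151 ± 24.96 CPM (counts scaled to a common library size, SD, n = 5) to 31.9 ± 14.4 in Asxl1 KO, 35.3 ± 12.7 in Dnmt3a KO and 47.6 ± 12.3 in Tet2 KO (SD, n = 4 each). Xcl1 rose in Asxl1 KO and Tet2 KO, and Cxcl10 rose in Dnmt3a KO. Xcl1 in Dnmt3a KO and Cxcl10 in Asxl1 KO and Tet2 KO were also higher, but did not pass the edgeR test. No ligand passed between knockouts. In run 1, the only run that Dnmt3a KO shared with Rosa KO, its Cxcl10 change was 0.82 log2 units, against 2.02 over all runs. Ccl4 was lower in all 3 knockouts, by 0.71 log2 units in Asxl1 KO, 0.91 in Dnmt3a KO and 0.97 in Tet2 KO, but did not pass the edgeR test. Ccl3 and Ccl5 did not pass it in any knockout either. The 3 comparisons share the same 5 Rosa KO libraries, so they are not independent of each other.

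The promoters of the 3 ligands that passed a test are shown because these genes changed in opposite directions. Each is the 250 bases before the annotated start on the minus strand, from RefSeq on GRCm38.p6, written 5′ to 3′. Capitals mark motif matches on either strand, so a match on the opposite strand appears as its reverse complement. They lie at chr11:83578637-83578886 for Ccl9, chr1:164935523-164935772 for Xcl1 and chr5:92348890-92349139 for Cxcl10.
Ccl9: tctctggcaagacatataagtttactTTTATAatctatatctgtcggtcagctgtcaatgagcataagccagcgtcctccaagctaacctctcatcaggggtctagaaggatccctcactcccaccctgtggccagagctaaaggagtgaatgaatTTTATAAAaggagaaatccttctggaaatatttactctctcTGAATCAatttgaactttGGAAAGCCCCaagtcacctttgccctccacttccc
Xcl1: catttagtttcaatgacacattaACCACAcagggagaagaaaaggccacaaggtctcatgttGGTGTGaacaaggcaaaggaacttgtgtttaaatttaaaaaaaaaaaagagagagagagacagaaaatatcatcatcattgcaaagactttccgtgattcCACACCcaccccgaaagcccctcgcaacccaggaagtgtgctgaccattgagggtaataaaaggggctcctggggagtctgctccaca
Cxcl10: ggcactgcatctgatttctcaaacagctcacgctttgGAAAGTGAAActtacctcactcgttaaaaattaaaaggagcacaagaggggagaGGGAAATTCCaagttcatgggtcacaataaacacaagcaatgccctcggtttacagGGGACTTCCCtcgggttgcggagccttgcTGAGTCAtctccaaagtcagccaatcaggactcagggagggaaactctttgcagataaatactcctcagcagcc

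The search covered both strands for the core promoter motif TATAAA, the STAT motif TTCNNNGAA, the AP-1 motif TGANTCA, the ZEB motif CAGGTG, the RUNX motif TGTGGT and the T-box motif GGTGTG. The interferon response element and the NF-kB motif were searched as well. The Cxcl10 window held the interferon response element 213 to 204 bases before the start, a motif found in 2.98% of 32526 promoter windows of that length. It also held NF-kB matches at 159 to 150 and at 103 to 94, and an AP-1 match at 74 to 68. NF-kB matches occurred in 3.92% of windows and AP-1 matches in 6.73%. The Ccl9 window held 1 NF-kB match at 35 to 26, 1 AP-1 match at 53 to 47 and 3 TATAAA matches, of which those at 94 to 89 and 92 to 87 overlap. TATAAA occurred in 12.3% of windows. The Xcl1 window shared no motif with these: it held TGTGGT at 227 to 222 and GGTGTG at 188 to 183 and 88 to 83, motifs found in 14.0% and 16.3% of windows. A match describes letters and does not show binding. RefSeq windows of Ccl4 and Ccl5 were not used here.

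The genes of 4 ligands lie together on chromosome 11 of mm10 in the order Ccl5, Ccl9, Ccl3, Ccl4. Gaps of 42400, 69207 and 13228 bases separate these neighbours in GENCODE M21. Ccl5 (83525778 to 83530518), Ccl9 (83572919 to 83578636) and Ccl3 (83647844 to 83649355) are on the minus strand, and Ccl4 (83662584 to 83664683) is on the plus strand. Xcl1 lies on chromosome 1 (164931644 to 164935527, minus strand) and Cxcl10 on chromosome 5 (92346638 to 92348889, minus strand). Exons of Xcl1 overlap the antisense transcript Gm20743, and exons of Cxcl10 overlap the antisense gene Art3. Whether the counting used strand is not given in the sources used here, so reads of these overlaps cannot be told apart.

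Total counts ran from 6625833 to 40701203 per library, with a median of 21642477. The ligands had between 27 counts (Xcl1) and 104388 counts (Ccl5) in a library, and Xcl1 was the least precisely counted. Library numbers in the labels form 3 separated ranges, called runs here, which the labels do not name as batches. Run 1 held Rosa KO 1, Asxl1 KO 1 and Dnmt3a KO 1 and 2, and run 2 held Asxl1 KO 2, Dnmt3a KO 3 and 4 and Tet2 KO 1 and 2. Run 3 held Rosa KO 2 to 5, Asxl1 KO 3 and 4 and Tet2 KO 3 and 4. Dnmt3a KO therefore shared a run with 1 Rosa KO library, and run is a term of every test. RNA of the targeted genes was not lower in their own knockouts: Asxl1 was at 70.3 to 146 CPM in Asxl1 KO and 82.1 to 161 in Rosa KO, Dnmt3a at 71.7 to 115 in Dnmt3a KO and 27.6 to 103 in Rosa KO, and Tet2 at 125.1 to 254 in Tet2 KO and 138 to 186 in Rosa KO. The groups are named as the labels name them, and RNA level does not check a change that leaves the transcript in place. Summed CPM of the 6 listed CD8 T cell markers was at least 4014 in every library, against 11.7 to 113 for 4 CD4 T cell markers. The CD4 sum was 72.6 to 113 in Dnmt3a KO, 15.05 to 45.9 in Rosa KO, 25.5 to 50.2 in Asxl1 KO and 11.7 to 33.3 in Tet2 KO. Of the CD8 markers, Cd3g and Cd3d were higher in Asxl1 KO than in Rosa KO (adjusted p = 0.00432 and 0.0087, edgeR). Cd3d was higher in Tet2 KO as well (adjusted p = 0.0405). The part of these markers in the ligand results was not tested. No label says that replicates came from separate animals, so the p-values cover the spread among libraries alone, and that spread may be technical.

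In Asxl1 KO, 1 of the 6 ligands was higher and 1 lower than in Rosa KO at an adjusted p under 0.05 (edgeR, quasi-likelihood F test), against 1.64% of all tested genes called, 0.814% higher and 0.821% lower. In Dnmt3a KO the ligand counts were again 1 and 1, against 0.216% of all genes, 0.036% higher and 0.18% lower. In Tet2 KO they were 1 and 1 as well, against 1.47%, 0.987% higher and 0.483% lower. At an unadjusted p under 0.05 there were 4 of the 6 ligands in each comparison, against 15.7%, 8.03% and 12.2% of all tested genes in Asxl1 KO, Dnmt3a KO and Tet2 KO. These shares, and those above at an adjusted p under 0.05, are also the background for the unadjusted and adjusted counts of the gene and marker lists. The median log2 fold change of the ligands was 0.15, -0.17 and 0.08 in Asxl1 KO, Dnmt3a KO and Tet2 KO, and that of all tested genes was at most 0.02 from 0, so the list as a whole did not move one way.

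Ccl9, also known as MIP-1 gamma, is a Ccr1 ligand of rodents best known from macrophages, dendritic cells and osteoclasts. Its level was 126.5, 148, 192, 137 and 150 CPM in Rosa KO 1 to 5, and 51.8, 20.8, 21.6 and 33.4 CPM in Asxl1 KO 1 to 4. Every Asxl1 KO library lay below every Rosa KO library. Dnmt3a KO 1 to 4 had 31.8, 53.5, 23.9 and 32.0 CPM, and Tet2 KO 1 to 4 had 54.9, 60.9, 38.8 and 35.6 CPM. These groups did not overlap Rosa KO either: the highest knockout value, in Tet2 KO 2, lay below the lowest control value, in Rosa KO 1. Among all tested genes, 1.4%, 2.01% and 1.38% had every library of the knockout below every Rosa KO library, for the knockouts of Asxl1, Dnmt3a and Tet2 in turn. Ccl9 fell by 2.37 ± 0.28 on the log2 scale in Asxl1 KO (± SE throughout for fitted changes), with an adjusted p of 2.31e-05 by edgeR. In Dnmt3a KO it fell by 2.35 ± 0.32 (adjusted p = 0.000421), and in Tet2 KO it fell by 1.63 ± 0.30 (adjusted p = 0.00451).

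The fall of Ccl9 was seen in each run that held Rosa KO libraries. Within run 3 alone the log2 change was -2.51 in Asxl1 KO (adjusted p = 3.19e-06) and -2.08 in Tet2 KO (adjusted p = 8.22e-05), by edgeR. Within run 1 it was -1.30 between 1 Asxl1 KO and 1 Rosa KO library (adjusted p = 0.148) and -1.56 between 2 Dnmt3a KO libraries and that Rosa KO library (adjusted p = 0.226). The spread in run 1 came from the 2 Dnmt3a KO libraries alone, and the lone libraries are assumed to vary like them. The Asxl1 KO and Dnmt3a KO calls held without any 1 library. Without Rosa KO 1, however, Dnmt3a KO shares no run with Rosa KO. Its change of -2.83 in that fit is reached only through the other knockouts and the run term. The change of -2.35 over all runs draws on them in part. A fit of the Dnmt3a KO and Rosa KO libraries alone, with its contrast from run 1, gave -1.565. The Tet2 KO call was lost without Tet2 KO 3 (-1.498, adjusted p = 0.101) or Tet2 KO 4 (-1.435, adjusted p = 0.0861), with the change close to the -1.63 over all libraries. Run accounted for 17.01% of the variance of Ccl9 in log2 CPM and group for 86.5%, where the medians over all tested genes were 25.6% and 19.0%. Each share was taken alone, and the shares overlap because the groups fill the runs unevenly. In bulk RNA, fewer cells of a type and less RNA per cell cannot be told apart.

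Markers of other cell types were read beside Ccl9. Summed CPM of 10 monocyte and macrophage markers was 362 to 1040.0 in Rosa KO, 445 to 719 in Asxl1 KO, 414 to 942 in Dnmt3a KO and 42.0 to 785 in Tet2 KO, and none of the 10 passed against Rosa KO by edgeR. At an unadjusted p under 0.05 there were 2 in Asxl1 KO, 1 in Dnmt3a KO and 0 in Tet2 KO, and DESeq2 called 1 in Asxl1 KO. Summed CPM of 10 B cell markers was 408 to 2351 in Rosa KO, and in run 3 it was 2125 to 2351 in Rosa KO against 529 to 559.5 in Asxl1 KO and 2063 to 2204 in Tet2 KO. In run 1 the order was the other way, at 408 in Rosa KO 1, 848 in Asxl1 KO 1 and 1795 to 1841 in Dnmt3a KO. Summed CPM of the dendritic cell markers in run 3 was 2231 to 2662 in Rosa KO, 833 to 1047 in Asxl1 KO and 2779 to 3196 in Tet2 KO, and in run 1 it was 791 in Rosa KO 1, 1118 in Asxl1 KO 1 and 1676 to 1680.0 in Dnmt3a KO. Plasma cell markers summed to 355 to 641 CPM in Rosa KO and 224.5 to 299.5 in Asxl1 KO. The dendritic cell list includes H2-Aa and H2-Ab1, and a dendritic cell difference separate from that of B cells cannot be read from its sum. Both sums were lowest in Tet2 KO 2, at 281 CPM for dendritic cell and 121 CPM for B cell markers. The part of the dendritic and plasma cell markers in the ligand results was not tested. The mean log2 CPM of the monocyte and macrophage markers and that of the B cell markers were used as covariates, in place of the sums. In that fit Ccl9 changed by -2.34 in Asxl1 KO (adjusted p = 0.000114), -2.28 in Dnmt3a KO (adjusted p = 0.00124) and -1.63 in Tet2 KO (adjusted p = 0.00541), by edgeR. Klrb1c, which encodes the natural killer (NK) cell receptor NK1.1, was at 221 ± 63.8 CPM in Rosa KO, 32.7 ± 10.1 in Asxl1 KO, 16.6 ± 12.4 in Dnmt3a KO and 28.1 ± 7.08 in Tet2 KO. Of 7 NK markers tested, 2 were lower and 1 higher in Asxl1 KO, 2 were lower in Dnmt3a KO and 1 was lower in Tet2 KO. Of all tested genes, 1.64%, 0.216% and 1.47% passed in these knockouts in turn. Summed NK marker CPM was 543 to 633 in Rosa KO, 336 to 693 in Asxl1 KO, 268 to 506 in Dnmt3a KO and 364 to 468 in Tet2 KO. No marker was at 0 in every library of a group, but Ncr1 was at 0 in both Asxl1 KO libraries of run 3. The sum of Asxl1 KO 1, 693, was above that of every Rosa KO library, and the part of NK markers in the Ccl9 result was not tested.

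**Figure D1:**
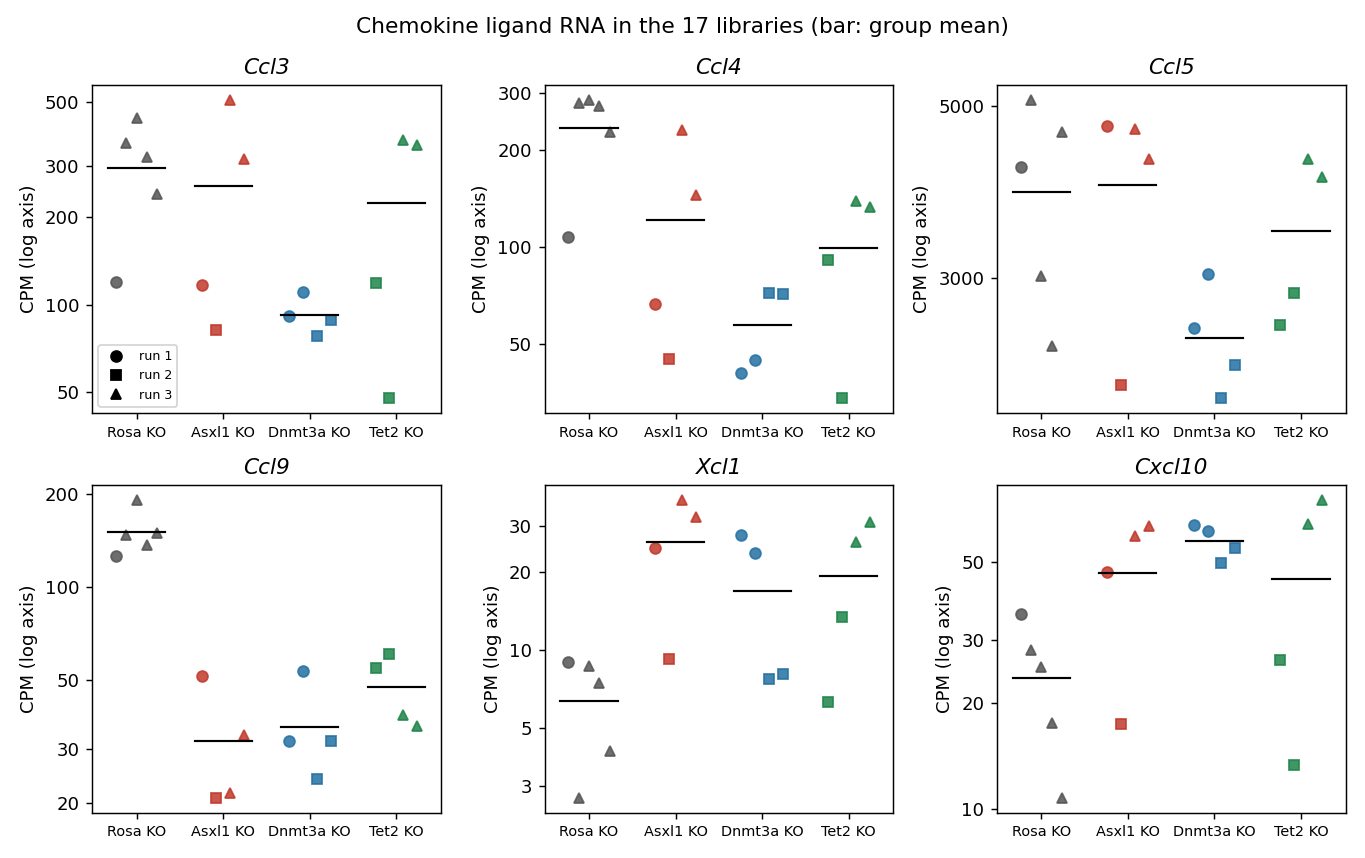
RNA level of each chemokine ligand in CPM on a log axis, with 1 point per library, shaped by run, and a bar at each group mean. Ccl9 is the ligand whose Rosa KO points, at 126.5 to 192 CPM, all lie above the points of every knockout, while Ccl3 and Ccl4 separate by run.

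Xcl1, or lymphotactin, is made by activated CD8 T cells and NK cells and draws dendritic cells that carry Xcr1. It was at 8.97, 2.69, 8.68, 7.48 and 4.08 CPM in Rosa KO 1 to 5, and at 24.8, 9.23, 37.9 and 32.4 CPM in Asxl1 KO 1 to 4. Asxl1 KO did not overlap Rosa KO, although Asxl1 KO 2 lay close to the highest control. All Asxl1 KO libraries lay above all Rosa KO libraries in 1.38% of tested genes. Dnmt3a KO 1 to 4 had 27.8, 23.6, 7.74 and 8.09 CPM, and Tet2 KO 1 to 4 had 6.29, 13.4, 26.0 and 31.1 CPM. Both of these groups overlapped Rosa KO, through Dnmt3a KO 3 and 4 and through Tet2 KO 1, all of run 2, which holds no control. Xcl1 rose by 2.27 ± 0.39 log2 units in Asxl1 KO (adjusted p = 0.00199, edgeR) and by 2.22 ± 0.42 in Tet2 KO (adjusted p = 0.00538). The change in Dnmt3a KO, 1.91 ± 0.46, did not pass by edgeR (adjusted p = 0.104) but passed by DESeq2 (adjusted p = 0.00122).

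Both Xcl1 calls were made within run 3 and were lost without a run term. Within run 3 the log2 change was 2.59 in Asxl1 KO (adjusted p = 0.00149) and 2.29 in Tet2 KO (adjusted p = 0.0075), by edgeR. Within run 1 it was 1.46 in Asxl1 KO (adjusted p = 0.253) and 1.52 in Dnmt3a KO (adjusted p = 0.593). Without a run term the change was 2.02 in Asxl1 KO (adjusted p = 0.155) and 1.58 in Tet2 KO (adjusted p = 0.559). The Asxl1 KO call was lost without both of its run 3 libraries (1.81, adjusted p = 0.208), and the Tet2 KO call without Tet2 KO 4 (2.15, adjusted p = 0.0587) or in a fit of the Tet2 KO and Rosa KO libraries alone (2.29, adjusted p = 0.0574). Gm20743, which overlaps Xcl1 on the other strand, was at 0.185 to 29.4 CPM and highest in Asxl1 KO 4; its part in the Xcl1 values was not tested.

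Cxcl10, or IP-10, is induced by interferons and attracts Cxcr3-bearing T cells. Its level was 35.6, 28.2, 25.2, 17.4 and 10.7 CPM in Rosa KO 1 to 5, and 63.9, 61.1, 49.8 and 54.9 CPM in Dnmt3a KO 1 to 4. Every Dnmt3a KO library was above every Rosa KO library, as was so for 2.02% of tested genes, and Dnmt3a KO had the smallest spread of the 4 groups. Asxl1 KO 1 to 4 had 46.8, 17.4, 59.2 and 63.5 CPM, and Tet2 KO 1 to 4 had 26.4, 13.3, 64.2 and 75.2 CPM. The run 2 libraries of these groups (Asxl1 KO 2, Tet2 KO 1 and 2) lay within the Rosa KO range, and the others above it. Cxcl10 rose by 2.02 ± 0.40 log2 units in Dnmt3a KO (adjusted p = 0.0203, edgeR). The changes of 1.16 ± 0.33 in Asxl1 KO (adjusted p = 0.0727) and 1.28 ± 0.35 in Tet2 KO (adjusted p = 0.0702) did not pass by edgeR, and passed by DESeq2 (adjusted p = 0.036 and 0.0353).

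The Cxcl10 call in Dnmt3a KO did not hold within a run: between the 2 Dnmt3a KO libraries and the 1 Rosa KO library of run 1, the log2 change was 0.82 (adjusted p = 0.686, edgeR). A fit of the Dnmt3a KO and Rosa KO libraries alone takes its contrast from the same run 1 libraries and gave 0.82 (adjusted p = 0.743). A fit without a run term gave 1.29 (adjusted p = 0.337). The call was lost without Dnmt3a KO 3 (1.91, adjusted p = 0.0542), Dnmt3a KO 4 (1.86, adjusted p = 0.0682) or Rosa KO 4 (1.935, adjusted p = 0.0539), each close to the 2.02 over all libraries. Within run 3, Cxcl10 passed in both other knockouts, at 1.58 in Asxl1 KO (adjusted p = 0.00623) and 1.77 in Tet2 KO (adjusted p = 0.00418). Without Rosa KO 1 the adjusted p in Asxl1 KO was 0.00834, and that control was the highest of its group. Art3 on the opposite strand was at 0 to 20.0 CPM, highest in Dnmt3a KO 2, and its part in the Cxcl10 values was not tested.

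**Figure D2:**
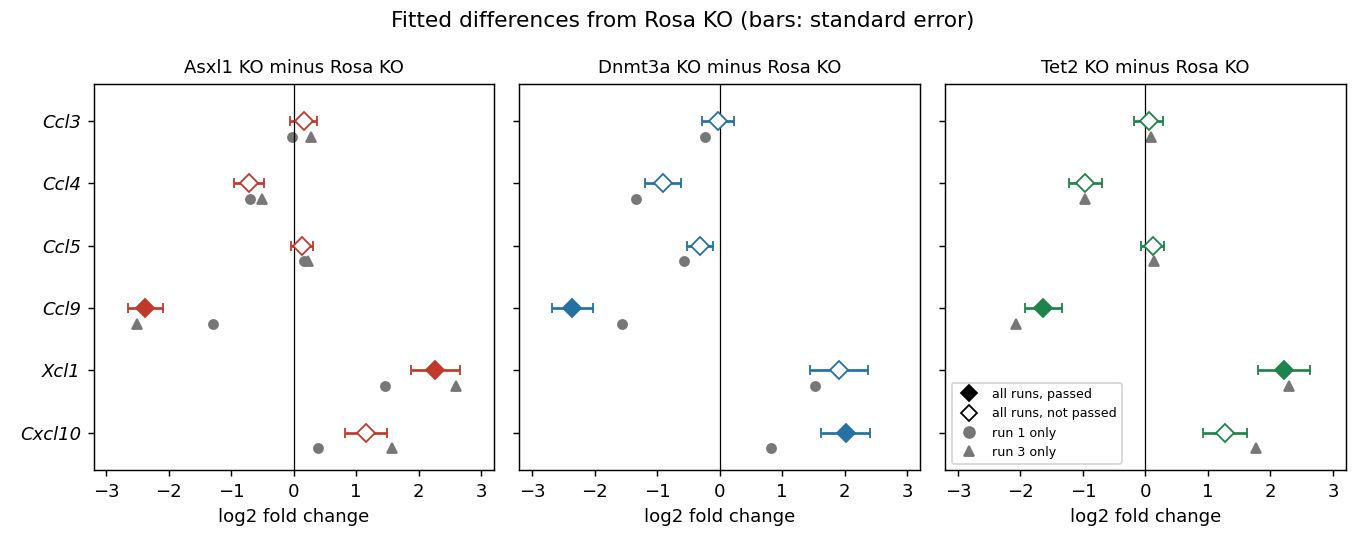
Log2 fold change of each ligand in each knockout minus Rosa KO, as diamonds with bars of 1 SE from the fit over all runs, filled where the adjusted p was under 0.05. Grey symbols give the change within run 1 or run 3 alone; for Ccl9, Xcl1 and Cxcl10 they have the same sign as the diamonds, with smaller changes in run 1.

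Ccl4, or MIP-1 beta, is a C-C ligand secreted quickly by stimulated CD8 T cells. It was at 108, 279, 286, 273 and 228 CPM in Rosa KO 1 to 5, and at 66.4, 45.1, 231 and 145 CPM in Asxl1 KO 1 to 4. Dnmt3a KO 1 to 4 had 40.7, 44.7, 72.0 and 71.4 CPM, and Tet2 KO 1 to 4 had 91.0, 34.0, 139 and 133 CPM. Within each run that held both, every knockout library but Asxl1 KO 3 lay below every Rosa KO library. Run 1 held 1 Rosa KO library, and the share of all tested genes with this order within runs was not counted. The log2 change was -0.71 ± 0.24 in Asxl1 KO (adjusted p = 0.129), -0.91 ± 0.29 in Dnmt3a KO (adjusted p = 0.307) and -0.97 ± 0.27 in Tet2 KO (adjusted p = 0.0705), by edgeR. None of these passed over all runs by edgeR, and the Tet2 KO change passed by DESeq2 (adjusted p = 0.0258). Within run 3 the Tet2 KO change, -0.97, passed (adjusted p = 0.006). A fit of the Dnmt3a KO and Rosa KO libraries alone gave -1.33 (adjusted p = 0.0202), a contrast taken from run 1 with its 1 Rosa KO library, and within run 1 alone the change was -1.33 as well (adjusted p = 0.277). With no filter on low counts Ccl4 passed in all 3 knockouts (adjusted p of 0.0228, 0.0384 and 0.00194).

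Ccl3, or MIP-1 alpha, binds Ccr1 and is usually released together with Ccl4. It was at 119, 360.0, 442, 323 and 241 CPM in Rosa KO 1 to 5, and at 117, 81.95, 509 and 319 CPM in Asxl1 KO 1 to 4. Dnmt3a KO 1 to 4 had 91.5, 111, 78.0 and 88.2 CPM, and Tet2 KO 1 to 4 had 119, 47.5, 371 and 357 CPM. The level followed the run: 241 to 509 CPM in run 3, 91.5 to 119 in run 1 and 47.5 to 119 in run 2. Run, taken alone, accounted for 90.6% of its variance and 76.4% of that of Ccl4. Group, taken alone, accounted for 30.65% and 54.2%, and these shares overlap with those of run. Dnmt3a KO, with no library in run 3, lay below all Rosa KO libraries for both genes, as was so for 2.01% of tested genes. Of those 5 Rosa KO libraries, 4 were of run 3. With run as a term, Ccl3 changed by 0.16 ± 0.21 in Asxl1 KO (adjusted p = 0.792), -0.02 ± 0.26 in Dnmt3a KO (adjusted p = 0.991) and 0.05 ± 0.23 in Tet2 KO (adjusted p = 0.968), by edgeR.

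The ratio of the 2 genes within a library needs no scaling between libraries. Rosa KO 1 to 5 had 1.11, 1.29, 1.54, 1.18 and 1.06 Ccl3 counts per Ccl4 count, and Asxl1 KO 1 to 4 had 1.77, 1.82, 2.21 and 2.20. All Asxl1 KO ratios were above all Rosa KO ratios. Dnmt3a KO 1 to 4 had 2.25, 2.48, 1.08 and 1.24, and Tet2 KO 1 to 4 had 1.31, 1.40, 2.67 and 2.68. In runs 1 and 3 every knockout library had a higher ratio than every Rosa KO library, with 1 Rosa KO library in run 1. The ratio was not tested, and how often other gene pairs separate in this way was not counted. In run 2, without a control, the Dnmt3a KO and Tet2 KO ratios of 1.08 to 1.40 lay within the Rosa KO range. A RefSeq model of Ccl4 spans Ccl3, so the annotation used for counting may touch this ratio.

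**Figure D3:**
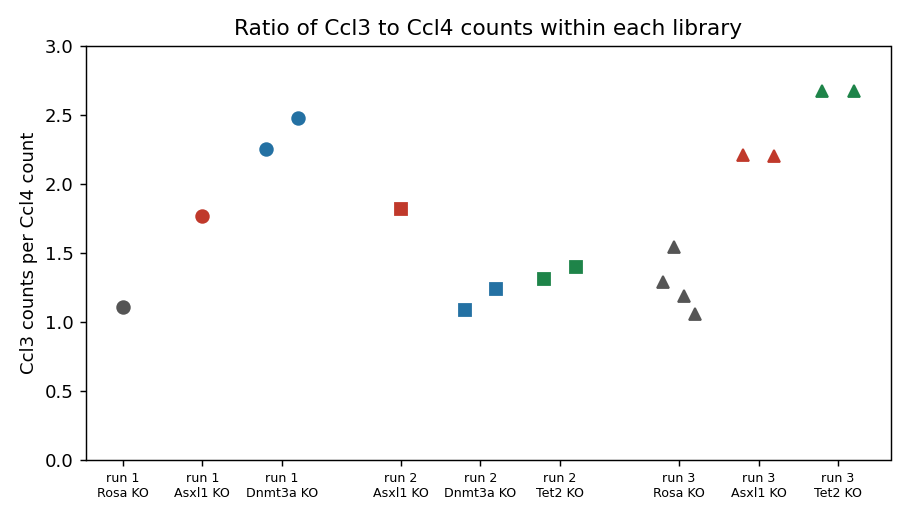
Ccl3 counts per Ccl4 count in each library, arranged by run and group, with 1 point per library. Rosa KO ratios lie between 1.06 and 1.54, and the knockout libraries of runs 1 and 3 lie between 1.77 and 2.68.

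Ccl5, or RANTES, is a C-C ligand stored by memory CD8 T cells. It was at 4169, 5097, 3018, 2448 and 4628 CPM in Rosa KO 1 to 5, and at 4714, 2179, 4668 and 4277 CPM in Asxl1 KO 1 to 4. Dnmt3a KO 1 to 4 had 2585, 3036, 2096 and 2317 CPM, and Tet2 KO 1 to 4 had 2603, 2864, 4269 and 4051 CPM. Every knockout group overlapped Rosa KO. The log2 change was 0.14 ± 0.17 in Asxl1 KO (adjusted p = 0.771), -0.31 ± 0.21 in Dnmt3a KO (adjusted p = 0.749) and 0.12 ± 0.18 in Tet2 KO (adjusted p = 0.88), by edgeR. Ccl5 made up 76.0 to 91.3% of the counts of the 6 ligands in Rosa KO libraries and 84.5 to 94.4% in the knockout libraries.

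Levels were set against each other per kilobase of exon, with all annotated exons of a gene merged. This length was 3.045 kb for Ccl9, 2.252 for Cxcl10 and 0.523 for Xcl1. It need not match the transcript that was expressed, and the order between genes depends on it. In Rosa KO the order was Ccl5 (4033 CPM per kb), Ccl3 (388 ± 160.3 SD), Ccl4 (356 ± 113), Ccl9 (49.5), Xcl1 (12.2 ± 5.42) and Cxcl10 (10.4 ± 4.28). Ccl3 and Ccl4, and likewise Xcl1 and Cxcl10, did not differ beyond their spread. The lower end of this order was different in the knockouts. Xcl1 was above Ccl9 per kb in 0 of 5 Rosa KO libraries, but in 4 of 4 of Asxl1 KO, 4 of 4 of Dnmt3a KO and 3 of 4 of Tet2 KO. Cxcl10 was above Ccl9 per kb in 0 of 5, 4 of 4, 4 of 4 and 2 of 4 libraries. In Asxl1 KO the mean levels were 49.9 CPM per kb for Xcl1, 20.7 for Cxcl10 and 10.48 for Ccl9.

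Between the knockouts, none of the 6 ligands passed in any of the 3 pairs by edgeR or by DESeq2. The background was 0.562% of genes called for Asxl1 KO against Tet2 KO, 0.353% for Asxl1 KO against Dnmt3a KO and 0.0937% for Dnmt3a KO against Tet2 KO. At an unadjusted p under 0.05 there were 1, 2 and 2 ligands in these pairs, against 7.21%, 11% and 5.6% of all tested genes. For Ccl9 the Asxl1 KO minus Tet2 KO difference was -0.74 ± 0.28 log2 units (adjusted p = 0.48), and the Dnmt3a KO minus Tet2 KO difference was -0.72 ± 0.30 (adjusted p = 0.806). For Cxcl10 the Asxl1 KO minus Dnmt3a KO difference was -0.86 ± 0.39 (adjusted p = 0.417), and for Ccl5 it was 0.45 ± 0.19 (adjusted p = 0.394). Within run 1, Ccl5 passed between 1 Asxl1 KO and 2 Dnmt3a KO libraries (0.735, adjusted p = 0.0114), and within run 2 the difference was -0.001. A test that was not passed does not show that the knockouts are alike.

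After the mean of each run was removed from log2 CPM, Ccl9 ran opposite to Xcl1 (Pearson r = -0.82) and to Cxcl10 (r = -0.75) across the 17 libraries. Xcl1 and Cxcl10 ran together (r = 0.64), Ccl4 had r = -0.67 with Xcl1, 0.56 with Ccl9 and 0.51 with Ccl3, and Ccl5 had r between -0.03 and 0.03 with the others. These values describe 17 libraries that share the group structure, the scaling and the depth of each library. The genes with a pattern most like that of Ccl9 were Il12rb2 (r = 0.947), Klre1 (r = 0.945) and S1pr5 (r = 0.943). For Xcl1 they were Ifngas1 (r = 0.933), Stat5b (r = 0.913) and Itgad (r = 0.902), and for Cxcl10 Enpp2 (r = 0.872), Rnh1 (r = 0.85) and Rps13 (r = 0.826). The nearest were Metrnl (r = 0.865), Gna12 and Fth1 for Ccl3, H2aw (r = 0.824), Plpbp and Hexim1 for Ccl4, and Ccdc69 (r = 0.851), Nfe2l1 and Mrpl4 for Ccl5.

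**Figure D4:**
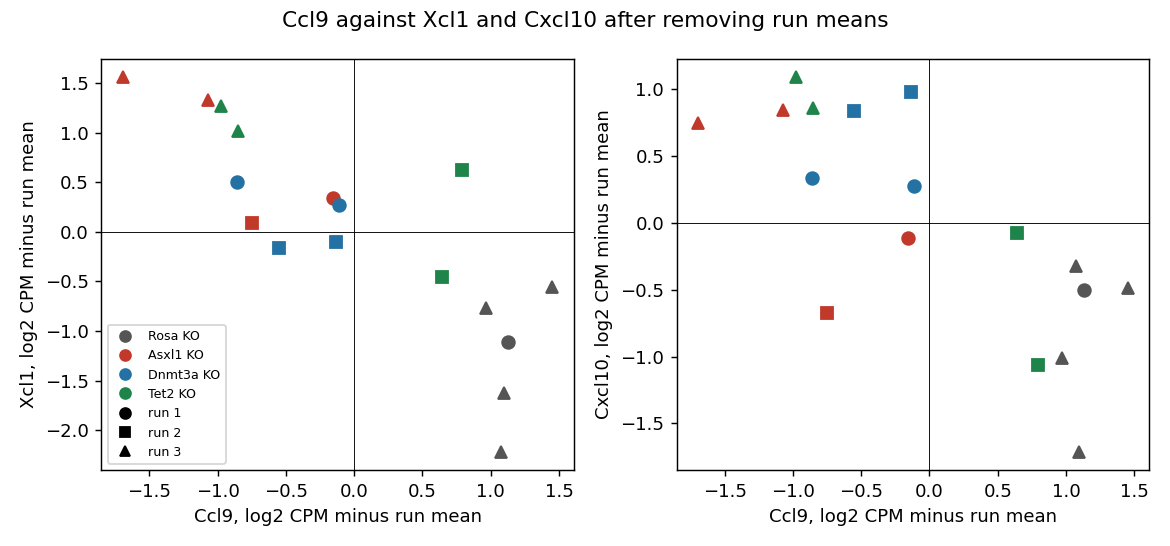
Run-centred log2 CPM of Xcl1 (left) and Cxcl10 (right) against that of Ccl9, with 1 point per library, coloured by group and shaped by run. Rosa KO libraries sit at high Ccl9 and low Xcl1 and Cxcl10; r is -0.82 and -0.75 over 17 libraries.

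The receptors of these ligands were read from a list of 24 chemokine receptor genes, 20 of which were tested. In Asxl1 KO, 1 was higher and 1 lower: Cxcr3, the Cxcl10 receptor, rose by 1.40 ± 0.17 log2 units (99.3 ± 47.4 to 264 ± 119 CPM, adjusted p = 2.35e-05, edgeR), and Cx3cr1, the fractalkine receptor of effector cells, fell by 0.98 ± 0.24 (adjusted p = 0.0376). In Tet2 KO, Cxcr3 rose by 1.23 ± 0.18 (adjusted p = 0.000415) and Ccr2, a receptor for monocyte chemoattractants, by 1.11 ± 0.16 (285 ± 78.4 to 848 ± 441 CPM, adjusted p = 0.00044). In Dnmt3a KO none of the 20 passed by edgeR, with 5 at an unadjusted p under 0.05 and 1 passing by DESeq2. Its Cxcr3 level was 182 ± 55.2 CPM. Cxcr6, a receptor of tissue-resident T cells, was higher in Asxl1 KO than in Tet2 KO (1.11 ± 0.20, adjusted p = 0.00408) and Dnmt3a KO (0.93 ± 0.21, adjusted p = 0.0464). Over the 17 libraries Xcr1 was at 4.57 to 28.9 CPM and Ccr1 at 0.0452 to 8.35 CPM. Xcr1 is also a member of the dendritic cell marker list.

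Of 35 other chemokine ligands, 13 were tested, and none passed by edgeR in any of the 6 comparisons. At an unadjusted p under 0.05 there were 0 to 2 per comparison, and DESeq2 called 1 in Asxl1 KO against Rosa KO, 1 in Asxl1 KO against Dnmt3a KO and none in the other pairs. Cxcl9, the interferon-induced relative of Cxcl10 that also binds Cxcr3, ranged from 2.26 to 69.7 CPM. Ccl6, a C-C ligand related to Ccl9, was at 18.9 ± 7.11 CPM in Rosa KO and 13.6 ± 8.15, 18.3 ± 9.16 and 19.6 ± 4.46 CPM in Asxl1 KO, Dnmt3a KO and Tet2 KO. Its log2 change was -0.65 ± 0.44 in Asxl1 KO (adjusted p = 0.508), where Ccl9 fell.

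Of 14 tested cytokine genes that activated CD8 T cells express with chemokines, none passed in Asxl1 KO by edgeR, with 4 at an unadjusted p under 0.05 and 1 by DESeq2. Fasl, the Fas ligand that kills target cells, fell by 1.15 ± 0.20 in Dnmt3a KO (306 ± 28.5 to 135 ± 5.32 CPM, adjusted p = 0.0051, edgeR) and by 1.27 ± 0.19 in Tet2 KO (adjusted p = 0.000415). Mif, an inhibitor of macrophage migration, rose by 1.09 ± 0.23 in Tet2 KO (adjusted p = 0.0121). Of 20 interferon and NF-kB genes, Tnfaip3, which encodes the NF-kB inhibitor A20, fell by 1.42 ± 0.34 in Asxl1 KO (1242 ± 554 to 344 ± 174 CPM, adjusted p = 0.049). None of the 20 passed in Dnmt3a KO, with 2 at an unadjusted p under 0.05 and 0 by DESeq2. In Tet2 KO none of the 20 passed by edgeR, with 3 at an unadjusted p under 0.05 and 1 by DESeq2. Mean Tnfaip3 was still 282.9 CPM in Dnmt3a KO and 412.0 CPM in Tet2 KO, both below the Rosa KO mean. A lower Tnfaip3 level was therefore not particular to Asxl1 KO, although these means take no account of run.

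Of 13 tested T cell transcription factors, Zeb2, a driver of terminal effector differentiation, fell in each knockout. Its log2 change was -2.27 ± 0.20 in Asxl1 KO (1081 ± 218 to 261 ± 58.4 CPM, adjusted p = 4.5e-07), -1.69 ± 0.23 in Dnmt3a KO (adjusted p = 0.000421) and -1.67 ± 0.22 in Tet2 KO (adjusted p = 0.00011), by edgeR. Bhlhe40, a factor needed for cytokine production, fell by 1.15 ± 0.17 in Asxl1 KO (adjusted p = 0.00022) and by 1.203 ± 0.18 in Tet2 KO (adjusted p = 0.00044). Eomes, a T-box factor of memory T cells, rose by 1.15 ± 0.19 in Asxl1 KO (adjusted p = 0.00128). Among 4 proteins that bind or cut chemokines, Dpp4, a protease that trims Cxcl10 and Ccl5, rose by 0.71 ± 0.16 in Tet2 KO (117 ± 13.5 to 213 ± 47.1 CPM, adjusted p = 0.023). None of the 4 passed in Asxl1 KO by edgeR or DESeq2, with 2 at an unadjusted p under 0.05. In Dnmt3a KO none passed by edgeR, with 1 at an unadjusted p under 0.05 and 1 by DESeq2.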

How the data were processed

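The authors deposited 1 table of raw counts per gene for each library. Per the submitters' processing notes, tools were STAR 2.5.3a and DESeq2 1.26.0 and the build was mm10, with no roles stated, and per the labels' protocols total RNA was isolated with a Direct-zol kit and built into TruSeq stranded libraries. The sources used here do not give the counter, the annotation or strand use, and the labels' molecule field reads genomic DNA. Counts were scaled by TMM to CPM (log2 CPM with a prior count of 2), filtered by filterByExpr (minimum count 10, total 15) and tested over 13881 genes with edgeR 4.0.16 (R 4.3.3), whose robust quasi-likelihood F test was fitted with group and run over all 17 libraries (11 residual degrees of freedom). A gene passed at a Benjamini-Hochberg adjusted p under 0.05 over all tested genes. The test was checked on simulated counts. Motifs, lengths and positions came from RefSeq and GENCODE M21. Alternatives were RLE factors, no filter, DESeq2 1.42.0, no run term, the 2 groups alone, a replicate block, marker covariates, single runs and leaving out libraries. All 6 ligands are named, with up to 4 passing genes of each list and the 3 genes most alike in pattern among named genes of at least 5 CPM. The members and lists were chosen with earlier results of these data known. Cxcl9, Ccl6, Ncr1, Xcr1 and Ccr1, and receptor levels that passed no test, were named after their values were seen. The same holds for the Tnfaip3 means in Dnmt3a KO and Tet2 KO. No pair of libraries in a group agreed within sampling noise: over 28 pairs the chi-square per degree of freedom was 19.7 to 258. Some results for genes of the receptor list are not reported here.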

Additional observations from a re-analysis of the deposited data

How the results depend on the processing

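RLE size factors in place of TMM changed no direction and no call of a ligand in the 6 comparisons. The 60 results compared also held group mean CPM values, each of which stayed within 1 SD of its TMM value. All 6 comparisons are given below in the order Asxl1 KO, Dnmt3a KO and Tet2 KO against Rosa KO, then Asxl1 KO against Tet2 KO, Asxl1 KO against Dnmt3a KO, and Dnmt3a KO against Tet2 KO. Genes passing are given as a percentage of the 13881 genes tested, whatever the setting. They were 1.64, 0.216, 1.47, 0.562, 0.353 and 0.0937% as reported, 4.09, 0.901, 2.72, 1.38, 2.23 and 0.475% with no filter, and 6.79, 2.18, 4.53, 2.7, 3.52 and 1.79% with DESeq2. Without a run term they were 0.166, 0.137, 0.166, 0.195, 0.0432 and 0.0072%. The marker covariates gave 0.908% for Asxl1 KO against Rosa KO and 0.158% against Dnmt3a KO, and the 2 groups alone gave 0.137% for the latter. Within run 1, Asxl1 KO gave 4.37% against Rosa KO and 9.37% against Dnmt3a KO. Within run 2, it gave 0.173% against Tet2 KO and 0% against Dnmt3a KO. Within run 3, Asxl1 KO gave 4.42% and Tet2 KO 2.9% against Rosa KO, and 1.15% between these knockouts. Without both Asxl1 KO libraries of run 3, an alternative chosen after seeing the data, Asxl1 KO gave 0.67% against Rosa KO, 0.317% against Tet2 KO and 0.216% against Dnmt3a KO.

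The ligands passing, 2 in each knockout against Rosa KO, were 4 in each with no filter and 1 in each without a run term. In Tet2 KO they were 4 with DESeq2, with the covariates and within run 3. Within run 1 they were 0 in Asxl1 KO and in Dnmt3a KO, and 1 between those knockouts, Ccl5. Without both Asxl1 KO libraries of run 3, 1 passed in Asxl1 KO. Ccl9 passed in each knockout under each alternative other than run 1 alone and the Tet2 KO libraries named above.

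No label says whether same-numbered libraries were paired. After group means were removed, 2 of 24 such pairs had a correlation over 0.1 (range -0.206 to 0.163). Of the 17 libraries, 4 correlated best with their own number. Run means were not removed and many of these pairs lay in different runs, so the check cannot exclude pairing. A replicate block in place of run left 0.0864, 0.137, 0.187, 0.122, 0.0144 and 0.0144% of genes passing, and 1 ligand in Asxl1 KO and 1 in Tet2 KO. In Dnmt3a KO 2 ligands passed, both lower: Cxcl10 no longer passed (1.10, adjusted p = 0.504, edgeR) and Ccl4 did (-2.085, adjusted p = 0.0115).

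Leaving out each replicate gave 0.576% (without Asxl1 KO 3) to 2.69% (without Asxl1 KO 2) for Asxl1 KO against Rosa KO, with 0.886% without Asxl1 KO 4 and 0.908% without Rosa KO 5. It gave 0.238% (without Tet2 KO 3) to 1.43% for Tet2 KO, 0.252 to 0.627% for Asxl1 KO against Tet2 KO, 0.0792 to 1.7% for Asxl1 KO against Dnmt3a KO and 0.0144 to 0.0792% for Dnmt3a KO against Tet2 KO. Ligands passing ranged from 1 to 2 in Dnmt3a KO and from 0 to 3 in Tet2 KO, with 0 without Tet2 KO 4.

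Sign changes concerned differences that had not passed. For Ccl3 against Rosa KO, the log2 change became -0.21 in Asxl1 KO and -0.41 in Tet2 KO without a run term, -0.49 and -0.67 with the replicate block, -0.032 in Asxl1 KO within run 1 and -0.001 in Tet2 KO with the covariates. For Ccl5 it became -0.17 without a run term and -0.088 with the replicate block in Tet2 KO, and -0.001 in Asxl1 KO without its run 3 libraries. In Asxl1 KO against Tet2 KO, within run 2 gave -0.44 for Ccl4, -0.29 for Ccl5 and -0.051 for Xcl1; the covariates gave -0.066 for Ccl5 and -0.046 for Xcl1; the 2 groups alone gave -0.07 for Ccl5; leaving out the run 3 Asxl1 KO libraries gave -0.077 for Ccl5 and -0.325 for Xcl1; and Cxcl10 became 0.063 without a run term and 0.10 with the block. In Asxl1 KO against Dnmt3a KO, within run 2 gave -0.003 for Ccl3, -0.65 for Ccl4 and -0.001 for Ccl5, within run 1 gave 0.27 for Ccl9 and -0.061 for Xcl1, and the covariates gave -0.035 for Xcl1. In Dnmt3a KO against Tet2 KO, Ccl3 became 0.014 with the 2 groups alone and 0.009 within run 2, and Ccl4 became -0.795 without a run term and -0.73 with the block.

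Leaving out replicates moved Ccl3 across 0 in Asxl1 KO (-0.049 to 0.267), Dnmt3a KO (-0.10 to 0.115) and Tet2 KO (-0.15 to 0.16) against Rosa KO, and Ccl5 in Tet2 KO (-0.014 to 0.237). It did so in Asxl1 KO against Tet2 KO for Ccl3 (-0.067 to 0.378), Ccl5 (-0.03 to 0.19), Xcl1 (-0.088 to 0.28) and Cxcl10 (-0.303 to 0.066), and against Dnmt3a KO for Ccl9 (-0.35 to 0.21). In Dnmt3a KO against Tet2 KO it did so for Ccl3 (-0.31 to 0.31), Ccl4 (-0.19 to 0.52) and Xcl1 (-0.50 to 0.027). The cause of these changes was not tested. Xcl1, with 27 counts in its lowest library, is the ligand most limited by depth.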
